A study of Rattus norvegicus with 16 samples.

Results

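The secreted antagonists of WNT signalling were followed in the rat knee after monosodium iodoacetate (MIA), an inhibitor of glycolysis that kills chondrocytes and is injected into the joint to produce an osteoarthritis-like disease. The members were 10 genes: Frzb, Sfrp1, Sfrp2, Sfrp4, Sfrp5, Wif1, Dkk1, Dkk2, Dkk3 and Sost. A member was taken from the probe sets to which the platform annotation gives a single gene symbol, by the brightest of them, and each of the 10 had exactly 1 such probe set. They were 10 of the 18166 genes measured in this way.

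The rats were male Wistar animals in 4 groups, and all shared strain, sex and tissue. The intact group received no injection, and the animals of the other groups were killed 2, 14 or 28 days after a single dose of 3 mg MIA into the knee. The tissue was meniscus with the articular cartilage of tibia and femur and small parts of joint capsule and bone, so it held more than chondrocytes. Each group had 4 arrays and there were 16 in all. The labels name an animal for each array while the methods describe pooling the RNA of a pair of animals for each. No saline-injected group was analysed here, and the single intact group served all days, so an effect of the injection or of time cannot be told apart from that of MIA, and the comparisons with intact share their control arrays.

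WNT proteins are secreted lipid-modified ligands that bind Frizzled receptors and the co-receptors LRP5 and LRP6, after which beta-catenin escapes degradation and acts in the nucleus with TCF and LEF factors. Secreted antagonists hold this pathway back outside the cell in different ways. The secreted Frizzled-related proteins, which include Frzb, and Wif1 bind the WNT ligands themselves, whereas Dkk1, Dkk2 and sclerostin, the product of Sost, bind the LRP co-receptors. Articular cartilage is known to be rich in such antagonists, and both excess and loss of WNT activity are known to harm it.

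Frzb and Wif1 were several-fold lower than in intact tissue on all 3 days, and Sfrp1 was higher on all 3. Dkk3 fell at day 2 and was above the intact level at day 28, Sfrp2 rose at day 14, and Sfrp4 rose at days 14 and 28. Dkk1 was lower at day 14 only, and Sfrp5, Dkk2 and Sost passed the test on no day. Values are log2 signals after robust multi-array averaging (RMA), and a difference of 1 is a doubling. A difference was called at an adjusted p below 0.05 in limma, with adjustment over all 36685 probe sets. Replicates 1 to 4 of a group are given in that order.

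The first 300 bases around the transcription start, 250 before it and 50 after it, were read from RefSeq on the build GRCr8 and matched by symbol for 6 of the 10 members (Frzb, Sfrp2, Sfrp5, Wif1, Dkk1 and Sost). They are printed for Frzb and Wif1, which were lower on every day, for Sfrp2, which rose at day 14, and for Dkk1, which held the most motif matches. Capitals mark the core of the TCF/LEF site, CTTTGA or CTTTGT on either strand, and the TATA box TATAAA on either strand. Frzb lies on the minus strand at chr3:85772047-85772346, Wif1 on the plus strand at chr7:58433329-58433628, Sfrp2 on the plus strand at chr2:171387286-171387585 and Dkk1 on the minus strand at chr1:237798601-237798900, and each is written 5′ to 3′ along its gene.
Frzb: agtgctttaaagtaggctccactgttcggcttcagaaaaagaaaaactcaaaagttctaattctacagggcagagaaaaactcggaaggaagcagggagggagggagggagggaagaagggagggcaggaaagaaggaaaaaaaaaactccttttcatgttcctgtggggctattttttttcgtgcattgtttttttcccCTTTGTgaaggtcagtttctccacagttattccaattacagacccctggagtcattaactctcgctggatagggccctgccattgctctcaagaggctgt
Wif1: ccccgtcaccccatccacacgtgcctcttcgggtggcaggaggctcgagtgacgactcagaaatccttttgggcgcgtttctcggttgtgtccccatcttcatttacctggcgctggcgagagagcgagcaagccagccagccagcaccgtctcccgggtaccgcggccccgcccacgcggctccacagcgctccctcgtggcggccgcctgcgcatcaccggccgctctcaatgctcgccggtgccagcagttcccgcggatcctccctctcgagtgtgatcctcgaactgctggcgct
Sfrp2: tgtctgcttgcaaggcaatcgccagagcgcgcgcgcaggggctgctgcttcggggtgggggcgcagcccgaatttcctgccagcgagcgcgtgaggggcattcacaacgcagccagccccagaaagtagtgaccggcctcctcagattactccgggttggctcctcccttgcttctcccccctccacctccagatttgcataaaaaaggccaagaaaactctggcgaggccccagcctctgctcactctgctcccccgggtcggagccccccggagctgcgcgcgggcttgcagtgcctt
Dkk1: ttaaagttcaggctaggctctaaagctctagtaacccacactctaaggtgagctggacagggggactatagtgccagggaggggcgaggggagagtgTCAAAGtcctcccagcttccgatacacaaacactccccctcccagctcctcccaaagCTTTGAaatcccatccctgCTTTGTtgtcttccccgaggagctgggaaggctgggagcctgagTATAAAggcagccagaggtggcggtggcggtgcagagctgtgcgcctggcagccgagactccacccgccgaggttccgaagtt
The Frzb window held 1 TCF/LEF core, which starts at base 201 of the 300. The Dkk1 window held 3, starting at bases 98, 155 and 174, and a TATA box at base 218. Neither the Wif1 nor the Sfrp2 window held a match to these letters. In all, 3 of the 6 member windows had a TCF/LEF core (Frzb, Sfrp5 and Dkk1), against 31.4% of 33469 windows of the same length, and 1 had TATAAA, against 14.2%. A match of so few letters describes the window and is not evidence of a bound site.

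Frzb, the ligand-binding antagonist also called secreted Frizzled-related protein 3, gave 10.62, 10.35, 10.37 and 10.43 on the intact arrays. Day 2 gave 8.03, 7.85, 7.75 and 7.75, day 14 gave 7.71, 7.55, 7.53 and 7.85, and day 28 gave 8.34, 7.92, 8.48 and 7.49. All 12 arrays after MIA lay below all 4 intact arrays, and the day 28 arrays were the most spread of the 4 groups (SD 0.45, n = 4, against 0.12 in intact tissue). Frzb was lower 6.06-fold, 6.88-fold and 5.22-fold on days 2, 14 and 28 (log2 differences of -2.60, -2.78 and -2.38, each with SE 0.17). The adjusted p in limma was 1.1e-07, 4e-07 and 5.7e-07. Among the 18166 genes, its difference was the 24th, 10th and 54th most negative. No pair of days passed for Frzb with all arrays. Day 28 stood 0.40 above day 14, with a 95% confidence interval of 0.04 to 0.76 and an adjusted p of 0.38. It stood 0.21 above day 2 (adjusted p = 0.40), and without replicate 4, the lowest array of day 28, that step was 0.40 and passed (adjusted p = 0.043). Frzb is also among the transcripts that the study picked on these same arrays, so its direction is not independent evidence.

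Wif1, which binds WNT ligands through a domain of its own, gave 11.02, 10.73, 10.77 and 9.95 in intact tissue. Day 2 gave 8.01, 7.96, 7.48 and 8.36, day 14 gave 8.01, 8.13, 7.15 and 7.28, and day 28 gave 8.36, 9.08, 8.99 and 8.23. No array of any day reached the lowest intact array, and all day 28 arrays lay above all day 14 arrays. Wif1 was lower 6.33-fold, 7.86-fold and 3.86-fold on days 2, 14 and 28 (log2 differences of -2.66, -2.97 and -1.95, each with SE 0.29). The adjusted p was 8.1e-06, 1.5e-05 and 0.00032. Its rank among the most negative differences was 21st, 4th and 106th of the 18166 genes. The step of 1.02 from day 14 to day 28 did not pass (adjusted p = 0.16, 95% interval 0.42 to 1.63), nor did that of 0.71 from day 2 to day 28 (adjusted p = 0.089).

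Sfrp1, the third ligand-binding member with a difference on every day, went the other way. The intact arrays gave 7.72, 8.04, 7.71 and 7.93, and the arrays of day 2 gave 9.47, 9.52, 9.70 and 8.70. Day 14 gave 9.58, 9.29, 10.07 and 10.18, and day 28 gave 8.94, 8.82, 8.94 and 8.79. All arrays after MIA lay above all intact arrays, and day 28 was both the tightest group (SD 0.08) and wholly below day 14. Sfrp1 was higher 2.82-fold, 3.81-fold and 2.04-fold on these days (log2 differences of 1.50, 1.93 and 1.03, SE 0.21). The adjusted p was 7.9e-05, 3.8e-05 and 0.0037. The fall of 0.91 from day 14 to day 28 did not pass (adjusted p = 0.079, 95% interval -1.35 to -0.46). It passed without replicate 2 of day 14 (-1.07, adjusted p = 0.038) or without replicate 4 of day 2 (adjusted p = 0.029), and without the latter day 28 was also lower than day 2 (-0.69, adjusted p = 0.013, against -0.47 and 0.12).

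Sfrp2 and Sfrp4, related ligand-binding antagonists made by fibroblasts and other connective tissue cells, moved later. Sfrp2 gave 10.91, 11.03, 10.88 and 11.14 in intact tissue and 11.08, 11.06, 11.06 and 10.68 at day 2. It then gave 12.07, 11.83, 11.98 and 12.29 at day 14 and 11.74, 10.72, 11.38 and 11.28 at day 28. Only the day 14 arrays stood wholly above the intact arrays, and they also stood above every array of the other days. Sfrp2 was 1.05 higher at day 14 than in intact tissue (SE 0.17, adjusted p = 0.00084) and 1.07 higher than at day 2 (adjusted p = 0.00048). The differences of -0.02 at day 2 (95% interval -0.39 to 0.35) and 0.29 at day 28 (-0.08 to 0.66) did not pass. Without replicate 2 of day 28, its lowest array, the day 28 difference was 0.48 with an adjusted p of 0.037, and day 28 stood 0.50 above day 2 (adjusted p = 0.021).

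Sfrp4 gave 11.01, 10.98, 10.78 and 11.11 in intact tissue and 10.70, 11.00, 11.22 and 10.25 at day 2, which overlapped. Its arrays gave 11.73, 11.60, 11.67 and 11.61 at day 14 and 12.04, 11.64, 11.73 and 11.45 at day 28, all above every intact array. The log2 difference from intact was 0.68 at day 14 (SE 0.17, adjusted p = 0.013) and 0.74 at day 28 (adjusted p = 0.008). At day 2 it was -0.18 (adjusted p = 0.48). Sfrp4 was also higher at day 14 and at day 28 than at day 2, by 0.86 (adjusted p = 0.0024) and 0.92 (adjusted p = 0.00094).

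Dkk3, the divergent member of the Dickkopf family whose place in WNT signalling is less settled, had the clearest change between days. It gave 10.32, 10.20, 10.15 and 10.11 on the intact arrays and 8.89, 8.42, 8.16 and 8.07 at day 2. It gave 10.46, 10.49, 10.49 and 10.33 at day 14 and 10.89, 10.98, 10.89 and 10.84 at day 28. The 4 groups did not overlap at all, in the order day 2, intact, day 14 and day 28. Dkk3 was 3.51-fold lower at day 2 (log2 difference -1.81, SE 0.13, adjusted p = 3.4e-07) and the 68th most negative of the 18166 genes. At day 28 it was 0.70 above intact tissue (adjusted p = 0.0025), while 0.24 at day 14 did not pass (adjusted p = 0.26, 95% interval -0.04 to 0.53). From day 2 it was higher by 2.06 at day 14 (adjusted p = 3.5e-07) and by 2.52 at day 28 (adjusted p = 2.1e-08).

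**Figure D1:**
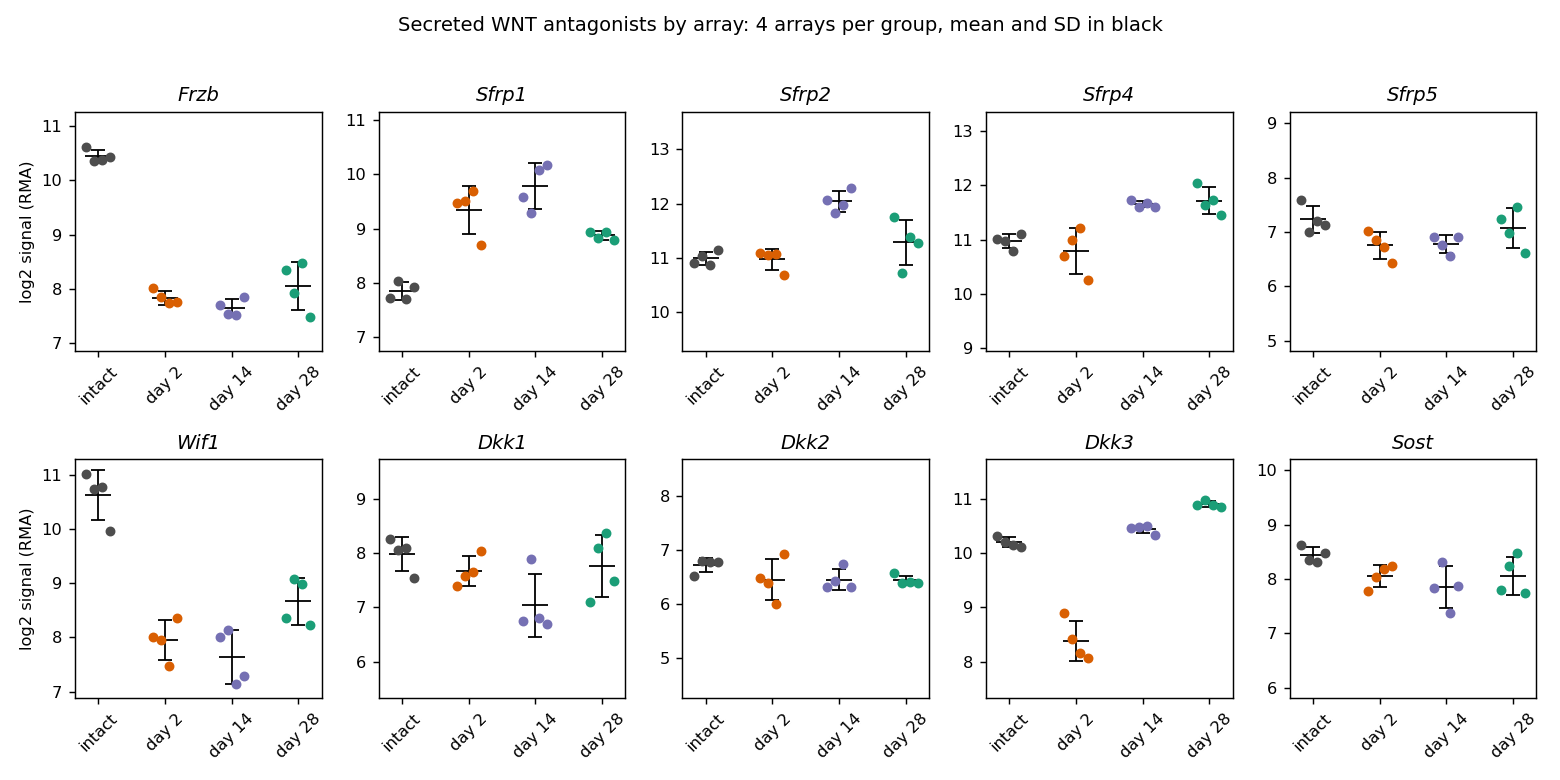
Log2 signal (RMA) of the 10 antagonists on each of the 16 arrays, by group, with the mean and SD of 4 arrays in black. Frzb and Wif1 lie below all intact arrays on every day and Sfrp1 above them, while Dkk3 moves from a mean of 8.38 at day 2 to 10.90 at day 28.

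Dkk1 and Dkk2, which bind the LRP co-receptors, overlapped between all groups. Dkk1 gave 8.26, 8.05, 8.10 and 7.54 in intact tissue and 7.40, 7.58, 7.64 and 8.05 at day 2. It gave 6.75, 7.90, 6.81 and 6.68 at day 14 and 7.11, 8.09, 8.37 and 7.48 at day 28. At day 14 a single array, replicate 2, lay within the intact range. The day 14 difference of -0.95 passed narrowly (SE 0.29, adjusted p = 0.041), and it was lost when any of replicates 1, 2 or 3 of intact, 2 or 3 of day 2, or 1, 3 or 4 of day 14 was left out (adjusted p 0.052 to 0.12). Without replicate 2 of day 14 it was -1.24 (adjusted p = 0.0053). The differences of -0.32 at day 2 and -0.23 at day 28 did not pass (adjusted p = 0.46 and 0.72).

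Dkk2 lay between 6.01 and 6.93 on all 16 arrays, near the median of an array (6.57 to 6.69). Its differences of -0.27, -0.26 and -0.28 at days 2, 14 and 28 did not pass, and their intervals reached from about -0.60 to 0.07. Without replicate 4 of day 2, its highest array, the day 2 difference was -0.43 and passed (adjusted p = 0.028). Sfrp5, a ligand-binding member, lay between 6.43 and 7.58. Its differences were -0.48, -0.45 and -0.16, of which that at day 2 came closest (adjusted p = 0.059, 95% interval -0.86 to -0.10). That difference passed in 7 of 29 alternatives, with adjusted p from 0.016 to 0.045, and was 0.31 with the chondrocyte markers as a covariate (adjusted p = 0.65).

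Sost, which osteocytes make and which bone uses to restrain its own formation, gave 8.63, 8.35, 8.32 and 8.48 in intact tissue. Day 2 gave 7.78, 8.03, 8.19 and 8.24, day 14 gave 7.84, 8.31, 7.38 and 7.88, and day 28 gave 7.79, 8.23, 8.48 and 7.74. All arrays of days 2 and 14 lay below all intact arrays, and day 28 overlapped them. The differences of -0.38, -0.59 and -0.38 nevertheless missed the threshold (adjusted p = 0.16, 0.051 and 0.23). The day 14 difference lay at the threshold and passed in 7 of 29 alternatives, among them cyclic loess (-0.63, adjusted p = 0.043), dim probe sets left out (adjusted p = 0.037) and the trend and robust prior (adjusted p = 0.039), all with every array kept. Without replicate 2 of that day it was -0.74 (adjusted p = 0.014).

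**Figure D2:**
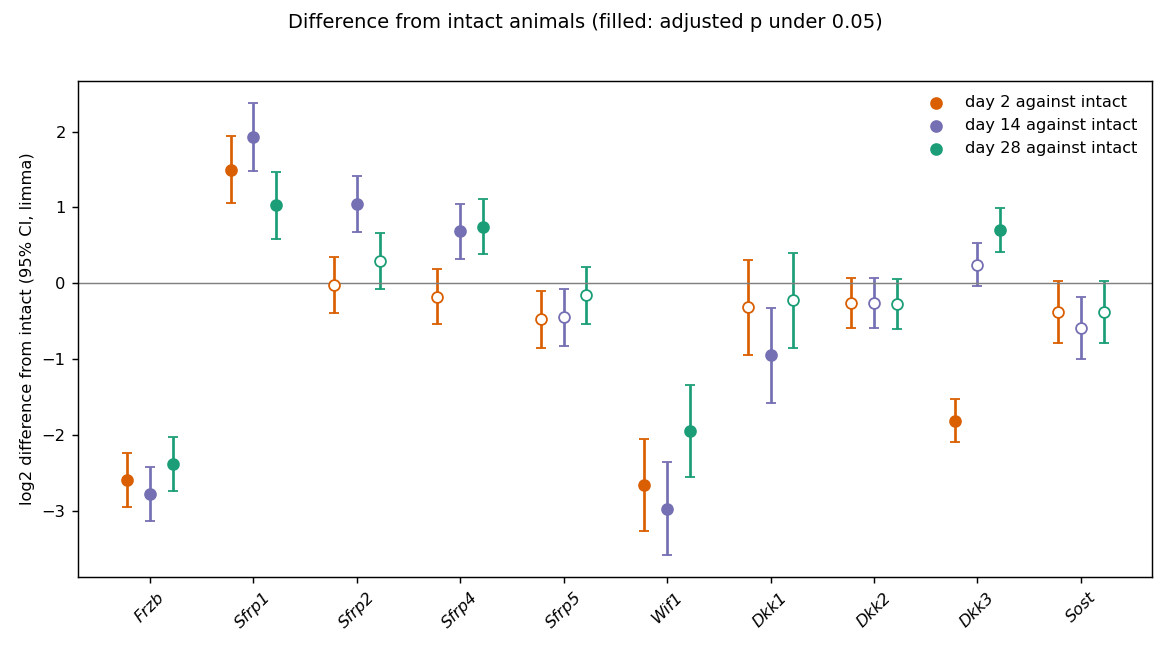
Log2 difference of each antagonist from intact tissue at days 2, 14 and 28, with the 95% confidence interval from limma, filled where the adjusted p was below 0.05. The intervals of Frzb lie between -3.14 and -2.03 and those of Sfrp1 between 0.58 and 2.38.

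Counted together, 1 member was higher and 3 were lower at day 2, where 14.7% of all probe sets were called higher and 11.2% lower. Day 14 had 3 higher members and 3 lower ones, against 9.13% and 6.01% of all probe sets. Day 28 had 3 higher and 2 lower ones, against 7.76% and 6.45%. For genes with a single symbol these shares were larger, at 19.8% and 15.2% on day 2, 12.2% and 8.74% on day 14, and 11% and 9.57% on day 28. With so few genes these counts describe the members, which went in both directions, and the median member differed from intact by -0.35, -0.36 and -0.19 while the median probe set differed by -0.05, -0.03 and 0.01. By the moderated F-test over the 3 comparisons with intact, 6 of the 10 passed (Frzb, Sfrp1, Sfrp2, Sfrp4, Wif1 and Dkk3), against 31% of all probe sets. For the F-test the share over genes with a single symbol was not computed.

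Between days, 3 members rose from day 2 to day 14 and 0 fell, against 6.71% and 7.83% of all probe sets. From day 2 to day 28, 2 rose and 0 fell, against 10.4% and 12.2%. Over genes with a single symbol the shares were 9.62% and 11.7% from day 2 to day 14, and 14.5% and 17.2% from day 2 to day 28. In both comparisons 1 member was lower at an unadjusted p under 0.05 in limma, and a test of each probe set without moderation, adjusted in the same way, also called 0 lower. Between days 14 and 28, 0 of the 10 were called in either direction, with 0.188% and 0.273% of probe sets called (0.341% and 0.429% of genes with a single symbol). There 4 members were higher and 2 lower at an unadjusted p under 0.05 in limma, and the unmoderated test also called 0 in either direction.

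Some members were separated from intact tissue on every array. At day 2, 1 member lay wholly above and 4 wholly below the intact arrays (15.2% and 11.8% of probe sets did so). At day 14 there were 4 above and 4 below (11.2% and 7.23%), and at day 28 there were 3 above and 2 below (10.2% and 8.04%). From day 2 to day 14, 3 lay wholly above and 0 below (9.37% and 10.6%), and from day 2 to day 28, 2 above and 0 below (13.3% and 14.1%). From day 14 to day 28, 2 lay wholly above (Wif1 and Dkk3) and 2 wholly below (Sfrp1 and Sfrp2), where 3.97% and 3.66% of probe sets did so. The shares of separated genes with a single symbol were not computed.

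**Figure D3:**
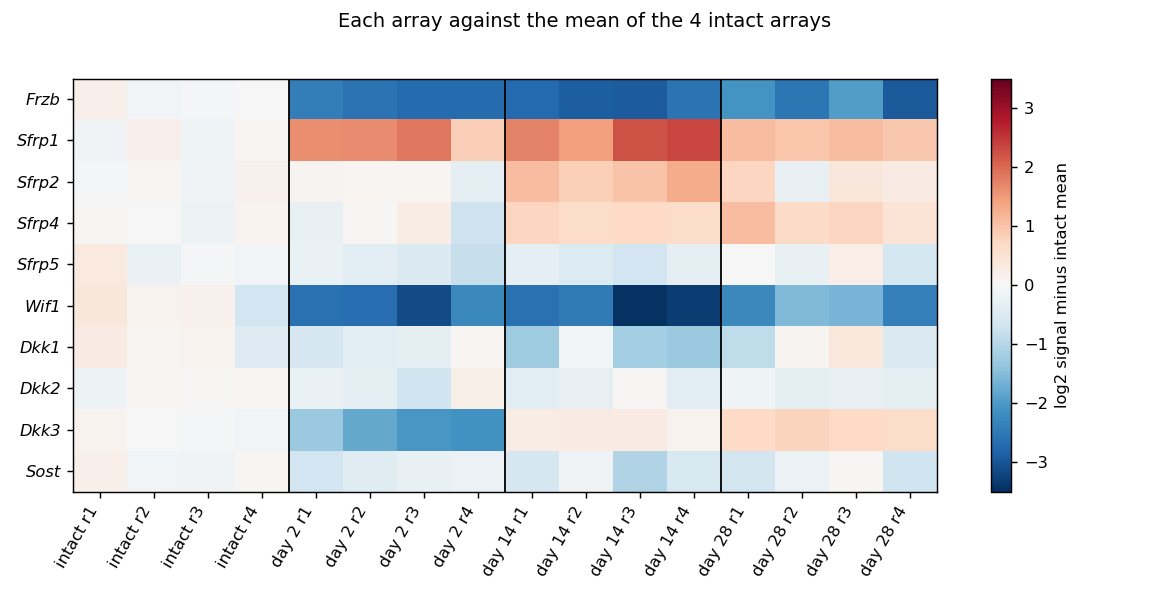
Log2 signal of each antagonist on each array minus the mean of the 4 intact arrays, with red above and blue below and one column per array. The rows of Frzb and Wif1 are blue on all 12 arrays after MIA, and among the days after MIA Dkk3 is blue at day 2 alone.

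Markers of the cell types in the tissue moved with several of these genes. The mean level of 19 chondrocyte markers was 8.96 to 9.51 on the intact arrays. It ranged from 6.73 to 8.25 on day 2, from 7.28 to 7.98 on day 14 and from 8.03 to 8.83 on day 28. Of the 19, 13, 11 and 7 were lower on the 3 days and 0 were higher, with the collagen gene Col2a1 lower by -2.87 at day 2 (adjusted p = 0.0043) and -3.12 at day 14 (adjusted p = 0.0051), and not called at day 28 (-1.21, adjusted p = 0.29). In such bulk tissue, fewer cells of a type and less RNA per cell cannot be told apart.

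With the chondrocyte marker level of each array as a covariate, an alternative chosen after seeing the data, Frzb kept its call on each day (-1.94, -2.19 and -2.10, adjusted p = 0.0028, 0.0045 and 1.7e-05). Dkk3 kept its call at day 2 (-1.20, adjusted p = 0.0067) and day 28 (0.97, adjusted p = 0.00056). Wif1 did not pass at days 2 and 14 (-1.68 and -2.10, adjusted p = 0.085 and 0.058) and passed at day 28 (-1.53, adjusted p = 0.01). Sfrp1 likewise did not pass at days 2 and 14 (1.32 and 1.77, adjusted p = 0.11 and 0.057) and passed at day 28 (0.95, adjusted p = 0.048). Sfrp2 at day 14 (1.23, adjusted p = 0.11), Sfrp4 at days 14 and 28 (0.69 and 0.75, adjusted p = 0.44 and 0.057) and Dkk1 at day 14 (-0.89, adjusted p = 0.61) lost theirs. The covariate moves with the groups, and over all probe sets it left 976 higher and 663 lower at day 2, from 5404 and 4122.

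The 11 osteoblast and osteocyte markers overlapped between groups, with array means from 9.17 to 9.81 in intact tissue, from 9.00 to 9.58 on day 2, from 9.15 to 9.84 on day 14 and from 9.33 to 10.08 on day 28. Of the 11, 2 were lower on day 2, and on day 14 there was 1 in each direction. Day 28 had 1 higher and 0 lower. Bglap, the bone matrix gene of osteocalcin, was lower at days 2 and 14 (-0.86 and -0.92, adjusted p = 0.037 and 0.042), and Col1a1 at day 2 (-0.30, adjusted p = 0.002). The osteocyte hormone Fgf23 was higher at day 14 (0.89, adjusted p = 0.0039) and the matrix gene Ibsp at day 28 (0.88, adjusted p = 0.045), while the osteocyte genes Dmp1, Phex and Mepe passed on no day. Within groups, the array highest in these markers was also highest in Wif1 in 4 of 4 groups, in Dkk1 in 3 and in Sost in 3. The lowest array was shared in 3 groups by Wif1, in 2 by Dkk1 and in 1 by Sost. Wif1 also shared its lowest array with the chondrocyte markers in 4 of 4 groups, and its highest in 1. These matches were chosen from those of all members with all marker lists, and others were as frequent. Dkk2 shared its highest array with the macrophage markers in 3 groups, and with the endothelial and mural markers in 3. Frzb and Wif1 each shared their lowest array with the macrophage markers in 3. How often chance alone gives such matches was not tested. The osteoblast and osteocyte marker level was also used as a covariate, again chosen after seeing the data. With it, Wif1 differed from intact by -2.29, -2.84 and -2.15 (adjusted p = 1.6e-07, 3.7e-08 and 2.6e-07). Wif1 was then lower at day 14 than at day 2 by -0.55 (adjusted p = 0.0053) and higher at day 28 than at day 14 by 0.69 (adjusted p = 0.026). Dkk1 at day 14 differed from intact by -0.83 (adjusted p = 0.0048), and Sost by -0.53 (adjusted p = 0.033).

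The 12 synovial and fibroblast markers had array means from 11.07 to 11.15 in intact tissue, from 10.70 to 11.09 on day 2, from 11.40 to 11.56 on day 14 and from 11.34 to 11.55 on day 28, so that days 14 and 28 lay above intact as Sfrp4 did. Sfrp1, Sfrp2 and Sfrp4 each had the same highest array as this list in 3 of 4 groups, and the same lowest array in 3, 4 and 3 groups. These matches too were chosen from those of all members and lists, without a test against chance. Replicate 4 of day 2 was the lowest array of its group in this list and in Sfrp1, Sfrp2 and Sfrp4. The part of these markers in the results for Sfrp1, Sfrp2 and Sfrp4 was not tested. The skeletal muscle markers ranged from 6.50 to 11.63 over all arrays, and each day overlapped intact tissue. Their level on day 14 (8.90 to 11.63) lay wholly above that on day 2 (6.66 to 8.77). Of the 16 markers, 3 were higher and 0 lower at day 14 than at day 2. The neutrophil and erythroid markers ranged from 9.50 to 9.66 in intact tissue, from 8.94 to 9.60 on day 2, from 7.28 to 9.78 on day 14 and from 6.65 to 9.23 on day 28, with 0, 5 and 12 of 16 lower on the 3 days. Replicate 2 of day 14 alone held the 9.78, against at most 8.33 in the other arrays of its group, and it was also the highest of them in the osteoblast and osteocyte markers (9.84) and in Wif1, Dkk1 and Sost. With the neutrophil and erythroid level as a covariate the calls of Sfrp1 at day 28 (0.83, adjusted p = 0.14), Sfrp4 at days 14 and 28 (0.65 and 0.70, adjusted p = 0.086 and 0.15) and Dkk1 at day 14 (-0.45, adjusted p = 0.40) were lost, and Frzb and Wif1 kept theirs.

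A further 3 lists left the intact range. The 10 adipocyte markers had array means from 9.58 to 10.50 in intact tissue, from 8.86 to 9.22 on day 2, from 8.25 to 8.78 on day 14 and from 6.93 to 7.32 on day 28, and 9, 10 and 10 of them were lower. The 11 macrophage markers had array means from 9.78 to 10.04 in intact tissue and from 10.53 to 10.87 on day 2, where 8 were higher and 0 lower, and they overlapped intact tissue on days 14 and 28 (9.82 to 10.14 and 9.60 to 9.87). The 9 endothelial and mural markers had array means from 10.43 to 10.49 in intact tissue. These means were below it on each day, at 9.93 to 10.08, 10.10 to 10.30 and 10.11 to 10.35. Of the 9, 5, 4 and 4 were lower and 0, 1 and 1 higher. The higher gene was Pdgfrb, by 0.49 at day 14 and 0.69 at day 28 (adjusted p = 0.00028 and 1.3e-05). The adipocyte and endothelial levels were thus below intact on the days when Frzb and Wif1 were lower and Sfrp1 higher, and the macrophage level was highest on the day when Dkk3 was lower. The part of these 3 lists in the results was not tested.

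**Figure D4:**
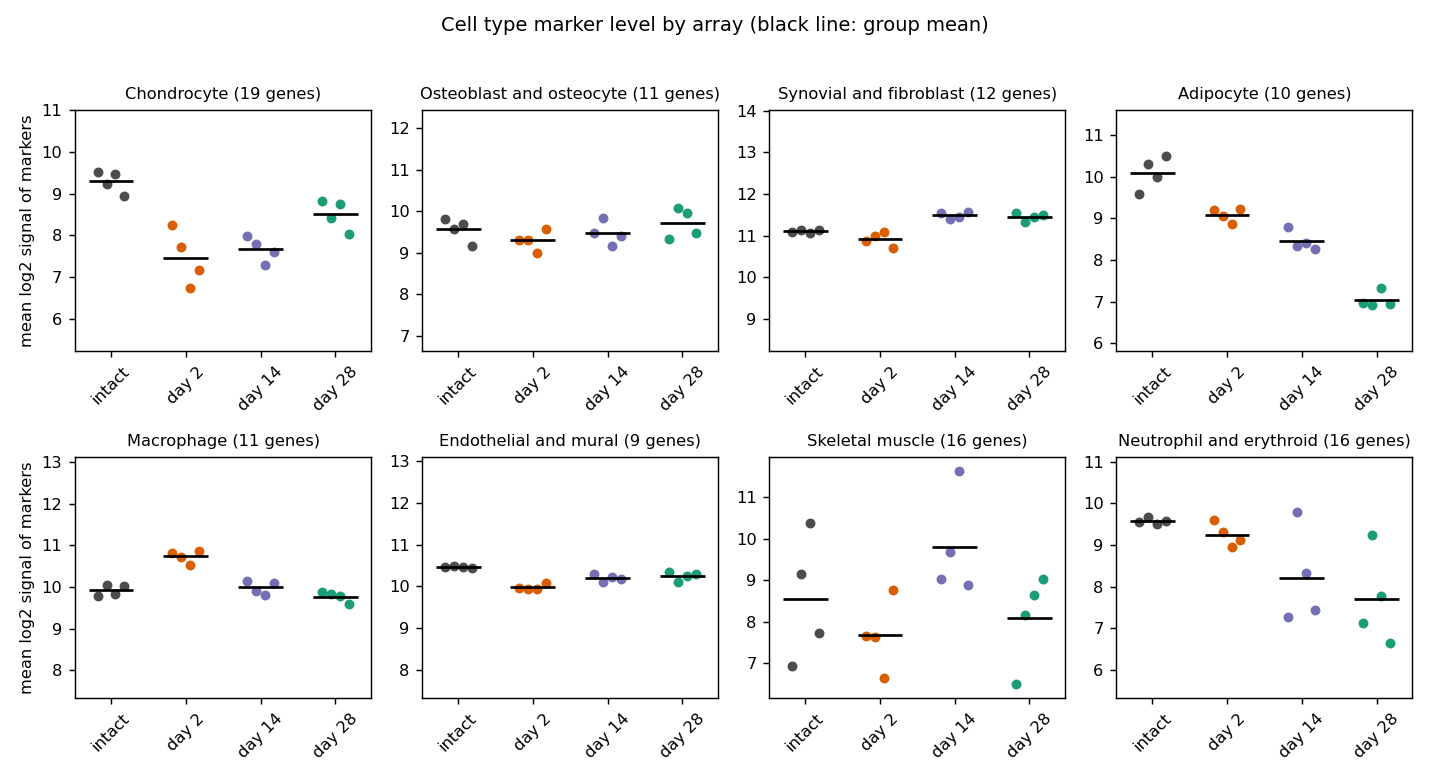
Mean log2 signal of the marker genes of 8 cell types on each array, by group, with the group mean as a black line. The chondrocyte level is below all intact arrays on each day, and the neutrophil and erythroid level is spread from 6.65 to 9.23 at day 28.

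Genes with the pattern most like each changed member were listed by Pearson correlation over the 16 arrays, which follow the group differences and share their libraries, so r is only a description. For Frzb they were Vit (r = 0.98), Zfp385b (0.98) and Nfasc (0.96), and for Wif1 they were Rab11fip4 (0.97), Fam163a (0.96) and Mical3 (0.95). Sfrp1 went most closely with Etnk1 (0.97), Bcl3 (0.95) and Ergic2 (0.95), Sfrp2 with Pi16 (0.93), Mir410 (0.91) and Phyhipl (0.90), and Sfrp4 with Aspn (0.96), Aebp1 (0.95) and Epdr1 (0.94). Dkk3 went most closely with Rabac1, Kcnma1 and Fndc1 (each 0.99).

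The rest of the pathway was read from lists of ligands, receptors, enhancers, other inhibitors, transducers and target genes. Of the genes with a single symbol, 19.8% were higher and 15.2% lower on day 2. These shares were 12.2% and 8.74% on day 14, then 11% and 9.57% on day 28. Of 19 WNT ligands, 0 were higher and 4 lower at day 2, while 2 at day 14 and 4 at day 28 were higher and 0 lower. Wnt5a, a ligand best known for signalling without beta-catenin, was higher by 1.20 at day 14 (adjusted p = 7.1e-05) and 1.02 at day 28 (adjusted p = 0.00019). Wnt16, a ligand linked to bone and cartilage upkeep, differed by -0.29 at day 2 (adjusted p = 0.038) and by 0.62 at day 28 (adjusted p = 0.00062). Wnt9a, which takes part in joint formation in the mouse, differed by -0.41 at day 2 (adjusted p = 0.031) and 0.62 at day 28 (adjusted p = 0.0051). Wnt11 had the largest fall at day 2 among the ligands called (-0.56, adjusted p = 0.0013). It did not pass at days 14 and 28 (-0.29 and -0.22, adjusted p = 0.095 and 0.23). Wnt10a was lower at day 2 only (-0.36, adjusted p = 0.033).

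Of 15 receptors and co-receptors, 1 was higher and 7 lower on day 2. On day 14 there were 4 of each, and on day 28 the counts were 4 higher and 2 lower. The Frizzled receptor Fzd2 was higher by 1.16 at day 14 and 1.09 at day 28 (adjusted p = 7.7e-05 and 9.3e-05), and Fzd1 by 1.14 and 1.11 (adjusted p = 0.0002 both). Ror2, a receptor for Wnt5a, was higher by 0.52 at day 14 and 0.67 at day 28 (adjusted p = 0.00048 and 5.9e-05). Fzd9 was lower throughout (-1.41, -1.03 and -0.54, adjusted p = 1.9e-05, 0.00075 and 0.04), as was Fzd4 (-0.42, -0.51 and -0.93). Fzd8, also picked by the study on these arrays, was lower at day 2 only (-1.21, adjusted p = 6.1e-07).

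Among 10 enhancers of the pathway, 8 were lower on day 2 and 4 on day 14, when 0 were higher. Day 28 had 3 in each direction. Rspo3, a secreted R-spondin that keeps WNT receptors at the cell surface, was lower throughout (-0.92, -1.01 and -1.24, adjusted p = 0.00016, 0.00023 and 3.3e-05), and so was Lgr6, a receptor for R-spondins (-1.13, -0.95 and -0.64). Rspo2 was lower at day 2 (-1.09, adjusted p = 0.0025). Ndp, Porcn and Wls, which serve as a Frizzled ligand, in WNT lipidation and in WNT secretion, were lower at day 2 (-0.34, -0.28 and -0.35) and higher at day 28 (0.37, 0.29 and 0.29).

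Of 11 other inhibitors, 3 were lower on day 2 and 0 higher. Day 14 had 3 higher ones and 4 lower ones, and day 28 had 3 and 1. Kremen1, the receptor with which Dkk1 removes LRP6 from the surface, was higher by 0.77 at day 14 and 0.89 at day 28 (adjusted p = 7.1e-05 and 1.5e-05). Igfbp4 (0.89 and 0.74) and Draxin (0.76 and 0.82) were higher on the same days. Apcdd1, a membrane inhibitor, was lower on all days (-0.80, -1.04 and -1.24), Notum, the enzyme that removes the WNT lipid, at days 2 and 14 (-0.87 and -0.83), and Rnf43 at day 14 (-0.51).

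Inside the cell, 1 of 14 transducers was higher and 5 were lower on day 2. Day 14 had 1 and 2, and day 28 had 2 of each. The TCF factors Tcf7l1 (-0.96, -0.48 and -0.54) and Tcf7l2 (-0.60, -0.47 and -0.48) were lower on all days. Pygo1 was lower at day 2 (-0.41) and higher at days 14 and 28 (0.58 and 0.53). Bcl9l was lower at day 2 (-0.49, adjusted p = 0.00098). Axin1 was higher at day 2 (0.27, adjusted p = 0.018) and Dvl3 at day 28 (0.24, adjusted p = 0.042).

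Of 15 target genes, 3 went each way on day 2. On day 14 the counts were 5 higher and 2 lower, and on day 28 they were 6 and 2, so targets went in both directions. Axin2, the feedback inhibitor often used as a readout of beta-catenin signalling, was lower at day 2 (-0.60, adjusted p = 4.8e-05) and differed by -0.19 and 0.20 at days 14 and 28, which did not pass (adjusted p = 0.14 and 0.12). Lef1 was lower at day 14 (-0.86, adjusted p = 0.018). Tnfrsf11b, which encodes the osteoclast inhibitor osteoprotegerin, was lower on all days (-2.17, -1.73 and -0.90). Myc was higher on all days (0.98, 0.71 and 0.46), and Ccn5 (1.35 and 1.40) and Ccn4 (0.92 and 0.76) were higher at days 14 and 28.

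**Figure D5:**
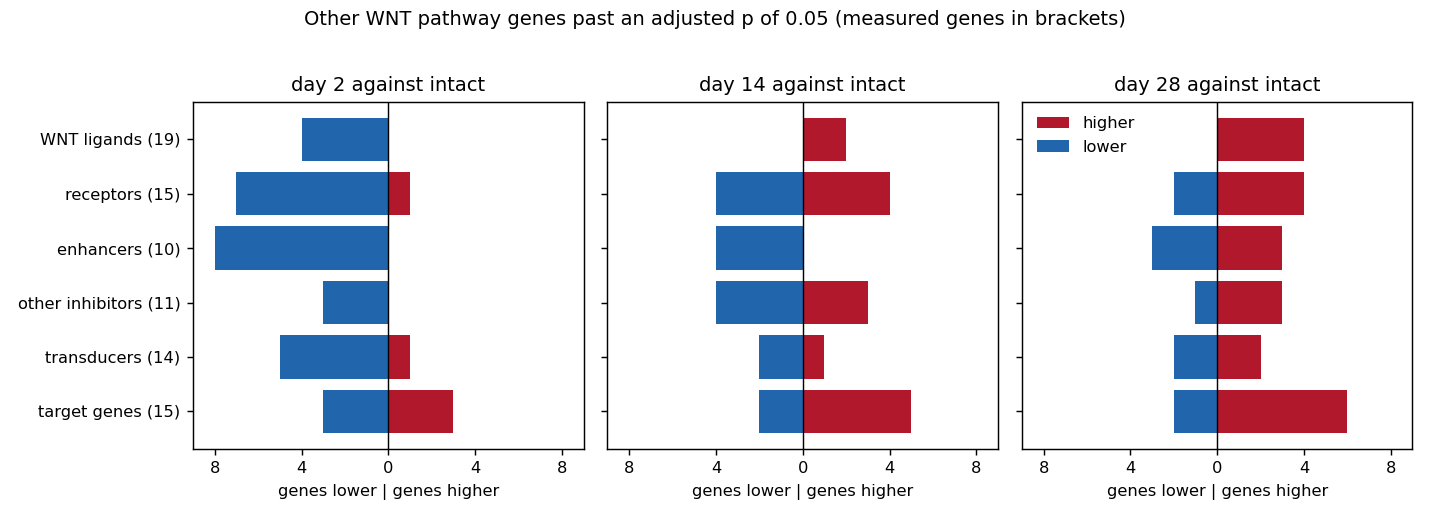
Number of genes of each WNT list called lower (blue, to the left) or higher (red, to the right) than intact at an adjusted p below 0.05, by day, with the number of measured genes in brackets. At day 2, 8 of the 10 enhancers were lower, and at day 28, 6 of the 15 target genes were higher.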

How the data were processed

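The deposited values were log2 signals, 1 for each probe set, from 16 Affymetrix Rat Gene 2.0 ST arrays, which the authors made by RMA in oligo 1.36.1 per the labels, with quantile normalisation between arrays. The values (1.60 to 13.84, array medians 6.57 to 6.69, correlations between arrays 0.959 to 0.992) were used as deposited. No depth is defined for arrays, and their number limits the precision. Quantile normalisation assumes that the arrays share 1 distribution, so an overall shift in RNA cannot show.

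Groups came from the labels. All 36685 probe sets were fitted in limma 3.58.1 with the 4 group means as coefficients (R 4.3.3), with eBayes (2.86 prior degrees of freedom), 6 comparisons and the moderated F-test, and p was adjusted by Benjamini-Hochberg over all probe sets. Exactly 1 gene symbol was given to 18511 probe sets and several to 575, and 18394 symbols checked by gene identifier were the same as in the reference table. Plots were made in Python 3.11.15 with matplotlib 3.10.9. The fit was tested on simulated data.

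Named genes were all 10 members, the 3 genes closest to each member that passed the F-test, and up to 3 genes per direction with the largest difference from each WNT list. The members and lists were chosen with earlier results of these data known. Alternatives covered normalisation, the filter on dim probe sets, the prior, the replicate block, marker covariates and each array left out. They also covered the 2 groups alone, the adjusted Welch test, the methods' t-test and, for the F-test, a one-way ANOVA.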

Additional observations from a re-analysis of the deposited data

Results flagged for a closer look

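Of 40 groups of 4 arrays (10 genes in 4 groups), 5 held an array that stood apart from the others of its group by Dixon's criterion, which chance alone would flag in about 1 of 20 groups. For Sfrp2 it was replicate 4 of day 2, at 10.68 against at least 11.06 in the others, and for Dkk1 it was replicate 2 of day 14, at 7.90 against at most 6.81. The same array stood at 9.78 in the neutrophil and erythroid markers, against 7.28 to 8.33 in the others of day 14, and at 9.84, the highest of its group, in the osteoblast and osteocyte markers. The part of these markers in its Dkk1 level was not tested. For Dkk2 it was replicate 1 of intact, at 6.52, and replicate 1 of day 28, at 6.57. For Dkk3 it was replicate 4 of day 14, at 10.33 against at least 10.46.

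The difference from intact itself differed between days for 3 genes, as the comparison of the days tests. From day 2 to day 14 it rose by 1.07 for Sfrp2, 0.86 for Sfrp4 and 2.06 for Dkk3, and from day 2 to day 28 by 0.92 for Sfrp4 and 2.52 for Dkk3.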

How the results depend on the processing

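Over 29 alternatives and 1740 differences of single members, 1666 stayed on the same side of the threshold, 43 lost their call, 31 gained one and 0 reversed, while 49 changed sign with neither value called. Frzb kept its call against intact in every setting but the methods' t-test at their own threshold. The paper names a one-way ANOVA followed by a t test whose form it does not give. The ANOVA, adjusted over all probe sets, was also run here and passed the same 6 members as the F-test. The t test was run here in the Welch form, which does not assume equal spread, and its results hold for that form alone. Frzb met the threshold (unadjusted p below 0.0001 and more than a 2-fold change) at days 2 and 14 and not at day 28. Under that rule the counts were 0 higher and 1 lower for each of days 2 and 14, 0 in both directions for day 28, with 0 higher at day 14 than at day 2 and 0 higher at day 28 than at day 2. The adjusted Welch test gave 1 member higher at day 28 than at day 2 (Dkk3), since Sfrp4 lost its call. With the trend and robust prior, 1 member was lower at day 28 than at day 14. With the neutrophil and erythroid markers as a covariate, 1 was higher at day 28 than intact, and 1 lower at day 28 than at day 14. Among the covariates chosen after seeing the data, the chondrocyte markers left 0 higher members on day 2 and on day 14, with 1 lower on day 14, and the osteoblast and osteocyte markers gave 2 lower at day 14 than at day 2 (Wif1 and Dkk1) and 1 higher at day 28 than at day 14 (Wif1). Leaving out single arrays, the counts ranged from 0 to 1 for higher and for lower at day 28 than at day 14, for lower at day 28 than at day 2 and for lower at day 14 than at day 2. The count of 1 came without replicate 1 of day 2 for higher at day 28 than at day 14, (Dkk3), and without replicate 4 of day 2 (Sfrp1), replicate 2 of day 14 (Sfrp1) or replicate 1 of day 28 (Sfrp2) for lower. It came without replicate 4 of day 2 for lower at day 28 than at day 2 (Sfrp1), and without replicate 2 of day 14 for lower at day 14 than at day 2 (Dkk1).

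With each array centred on its median, the calls at day 2 were 6825 higher and 2728 lower over all probe sets, against 5404 and 4122, and no member changed its call. The replicate numbers did not pair the arrays: of 24 pairs 7 by the titles and 8 by the descriptions, which differ at day 2, had a correlation over 0.1 (range -0.36 to 0.46). With the title number as a block, Sfrp5 at day 2 passed (-0.48, adjusted p = 0.041), and 4 members were lower at day 2. Sfrp5 at day 2 also passed with dim probe sets left out (adjusted p = 0.045), with the skeletal muscle markers as a covariate (-0.58, adjusted p = 0.016) and without replicate 2 of intact, 1 of day 2, 3 of day 28 or 4 of day 28 (adjusted p 0.032 to 0.044). The description number as a block let 7 members pass the F-test. No other probe set was annotated to any of the 10 members alone, so that alternative could not be run. The cause of these changes was not tested.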
